A study of Mus musculus with 16 samples.

Results

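Genes of the RNA-sensing and interferon pathway were followed in cultured mouse hepatocytes, taken by name: the nucleic acid sensors Ddx58, Ifih1, Dhx58 and Zbp1, and the transcription factors Stat2, Irf9, Irf1, Irf3 and Irf7. These 9 members, out of 55450 genes quantified, were all among the 11675 genes that passed the filter on low values and were tested. Bulk RNA-seq libraries were made from wild-type hepatocytes of adult male C57BL/6J mice, freed from the liver by enzyme perfusion and low-speed spins and then cultured overnight in DMEM with fetal bovine serum and insulin-transferrin-selenium. Cells of the 4 groups received no addition (untreated), 10 mM sodium itaconate, a 10-fold dilution of a chemically defined lipid mixture (arachidonic, linoleic, myristic, oleic, palmitic and stearic acids with cholesterol), or both. Each group had 4 libraries, lettered A to D, and libraries with the same letter were treated as a block. The labels do not say whether letters are separate animals. The p-values measure the spread left between these libraries once treatment and letter are taken out. Whether they hold across animals is not known.

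Itaconate is a metabolite that activated macrophages make from cis-aconitate, and the design asks what it does to hepatocyte transcripts with and without a lipid load. RIG-I (Ddx58) and MDA5 (Ifih1) bind viral RNA in the cytosol and signal through the mitochondrial adaptor MAVS to kinases that phosphorylate IRF3 and IRF7, which then drive interferon genes. Secreted interferon acts through its receptor and JAK kinases to form a complex that holds STAT2 and IRF9 and binds interferon-stimulated response elements, which raises a large set of genes, the sensors, Stat2, Irf9 and Irf7 included.

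Library totals ran from 22346049 to 35512004 expected counts (median 27719372), and a member had between 509 and 4984 counts in a library. All 8 hepatocyte markers were detected in every library, with Alb at a mean of 33500 CPM (read counts scaled to library size, with TMM factors). Markers of other cells were not all low. Of the cholangiocyte list, Spp1 averaged 530 CPM and Sox9 112, while Krt19 (0.225) and Krt7 (0.0046) were near 0. Summed CPM over 9 lymphocyte, dendritic and neutrophil markers stayed at or below 1.3, with Nkg7 and Ly6g at 0 in every library. The 12 macrophage markers summed to 168 to 337 CPM, of which Cd68 made up a mean of 218, while the Kupffer cell marker Clec4f averaged 2.19. The lipid + itaconate B library stood apart over all genes, with a chi-square per gene of 86.9 to 120 against the other libraries of its group, where all other pairs within groups had 8.55 to 52.3. Without it the number of members called was the same in each comparison below. In bulk RNA, fewer cells of a type and less RNA per cell cannot be told apart.

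The promoter windows of the members are shown because response elements of this pathway are short enough to read. RefSeq windows (GRCm38.p6, 250 bases before to 50 after the start) were matched for 7 of the 9 members, as 9 windows. Dhx58 and Zbp1 had no entry. Both strands were searched for GAAANNGAAA, an interferon-stimulated response element (ISRE), and for TTCNNNGAA, a gamma-activated site (GAS). Of the 9 windows, the ISRE letters were in 1 each of 3 members and the GAS letters in 1 of 1 member. Over all 32851 windows the shares were 3.44% and 8.3%, so 1 GAS window in 9 is near its share. A stretch around each match follows, in gene orientation with the matching letters in capitals, ISRE in the first 3 and GAS in the last.
Ddx58: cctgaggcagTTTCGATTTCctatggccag
Ifih1: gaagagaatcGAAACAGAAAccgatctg
Stat2: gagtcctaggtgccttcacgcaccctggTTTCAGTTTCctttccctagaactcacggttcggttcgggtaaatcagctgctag
Irf1: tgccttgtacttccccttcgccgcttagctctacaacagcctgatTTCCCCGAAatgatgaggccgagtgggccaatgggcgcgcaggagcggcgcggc
The Ddx58 stretch (chr4:40239804-40239833, minus strand) and the Ifih1 stretch (chr2:62646206-62646233, minus strand) began their match 3 and 33 bases into the transcript. In the Stat2 stretch (chr10:128270248-128270330, plus strand) the match began at position -222 from the start, and in the Irf1 stretch (chr11:53769879-53769977, plus strand) at position -90. The windows of Irf3, Irf7 and Irf9 held neither set of letters, which says only that these letters are not in these windows.

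Itaconate alone lowered the sensors. Ddx58, the RIG-I gene (chromosome 4, 40203773 to 40239828, minus strand), stood at 64.8, 55.9, 69.1 and 83.6 CPM in untreated libraries A to D and at 45.7, 36, 44.2 and 55.1 CPM with itaconate. Every itaconate library lay below every untreated one. Its log2 fold change was -0.59 ± 0.085 (SE), a 33.7% decrease (adjusted p = 0.00104, edgeR quasi-likelihood test with Benjamini-Hochberg adjustment over all genes tested).

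Dhx58, which encodes LGP2, a relative of RIG-I without signalling domains of its own (chromosome 11, 100694884 to 100704271, minus strand), stood at 60.1, 54.8, 49.1 and 63.5 CPM in untreated libraries and at 39.6, 31, 32.9 and 38.9 CPM with itaconate. It fell by 0.68 on the log2 scale (SE 0.084, adjusted p = 0.000262). Zbp1, the sensor of Z-form nucleic acids that can trigger necroptosis (chromosome 2, 173206612 to 173218923, minus strand), had the largest itaconate difference of the members. It went from 76.6, 64.9, 56.1 and 89.1 CPM to 51.6, 37, 31.7 and 47.5 CPM, a fall by 0.77 on the log2 scale (SE 0.11, adjusted p = 0.00104). Ifih1, the MDA5 gene (chromosome 2, 62595798 to 62646255, minus strand), fell by 0.49 (SE 0.098, adjusted p = 0.0101), from 67.3 to 93.5 CPM to 43.9 to 66.3 CPM. None of these 4 sensors overlapped between the groups.

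The transcription factors divided. Irf7, the interferon-inducible factor that amplifies interferon gene expression (chromosome 7, 141262706 to 141266481, minus strand), stood at 105, 88.9, 85.4 and 128 CPM in untreated libraries and at 74.8, 59.2, 52.7 and 84.4 CPM with itaconate. It fell by 0.59 on the log2 scale (SE 0.09, adjusted p = 0.00153). Irf9, the DNA-binding subunit of the STAT complex (chromosome 14, 55603571 to 55610030, plus strand), fell by less, 0.18 (SE 0.048, adjusted p = 0.0366), from 84.9 to 94.7 CPM to 74.5 to 84 CPM. The Irf9 call was lost whenever any untreated or itaconate library was left out (adjusted p between 0.0754 and 0.138).

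Stat2, the partner of IRF9 (chromosome 10, 128270559 to 128292849, plus strand), did not pass the test with itaconate alone (log2 fold change -0.26 ± 0.084, adjusted p = 0.0902), with ranges of 132 to 178 and 101 to 151 CPM that overlapped. Irf1, a factor induced by interferon gamma (chromosome 11, 53770014 to 53778374, plus strand), was at -0.09 ± 0.06 (adjusted p = 0.407). Irf3, the constitutively expressed factor that MAVS signalling activates by phosphorylation (chromosome 7, 44997648 to 45002848, plus strand), was at 0.05 ± 0.036 (adjusted p = 0.401). Its libraries stood at 55.6, 54.5, 51.1 and 51.1 CPM untreated and at 56.8, 54.7, 54.2 and 54.6 CPM with itaconate, with the smallest SD of the members in both groups (2.34 and 1.19 CPM).

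Over the whole group, 6 of 9 members were called lower with itaconate and none higher, where 2.95% of all tested genes were called lower and 1.96% higher. The members' median log2 fold change was -0.49, against -0.002 over all genes tested. The 6 called members were also the 6 whose libraries did not overlap, as was the case, over all genes tested, for 3.86% on the lower side and 3.67% on the higher. Without the replicate block only Dhx58 stayed past the test (adjusted p = 0.0384), the other 5 lying between 0.0931 and 0.272; with DESeq2 Stat2 passed as well (adjusted p = 0.045).

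**Figure D1:**
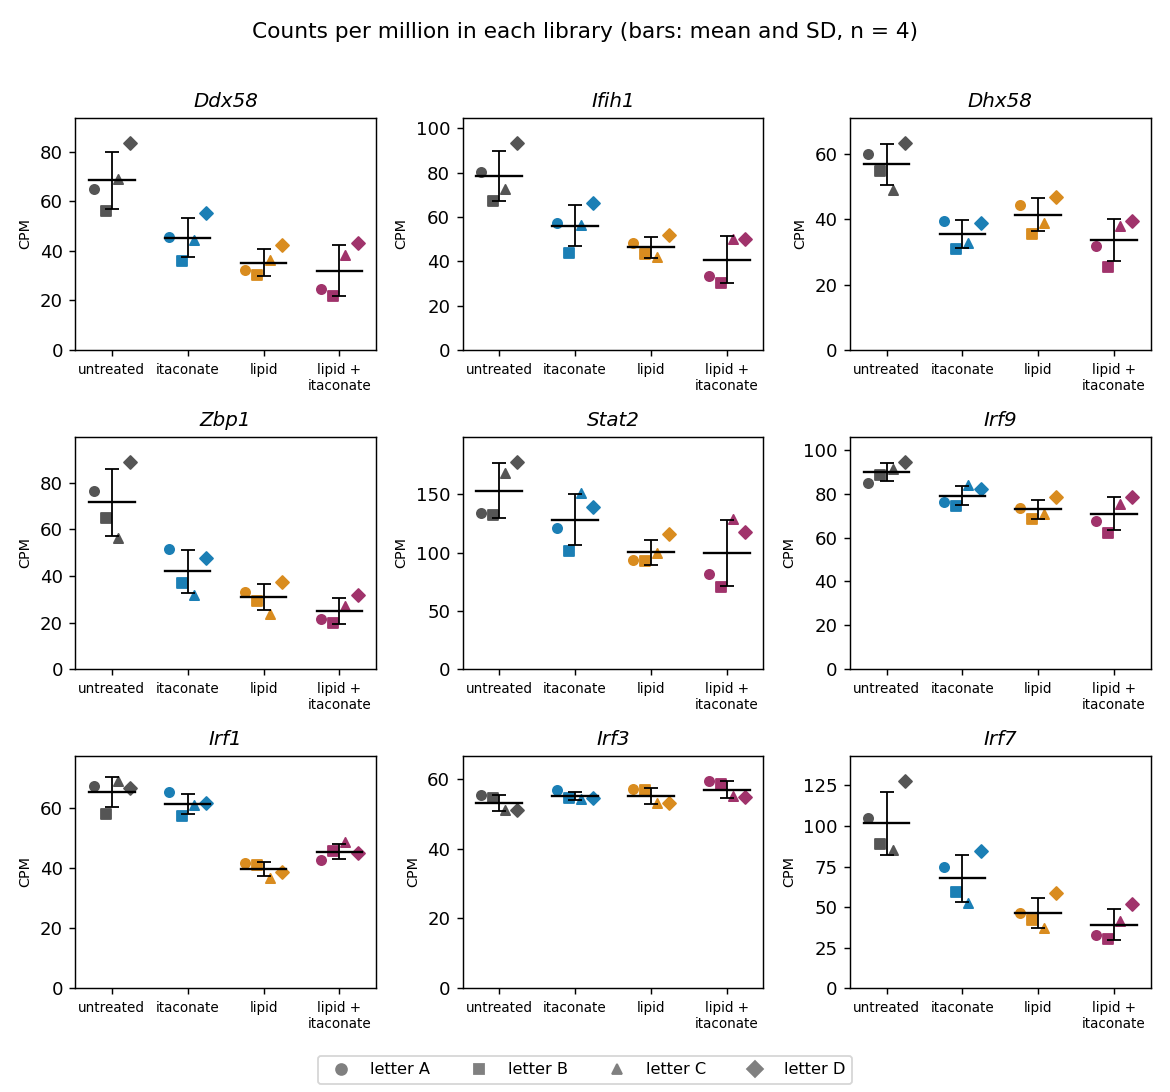
CPM (vertical axis) of each member in every library of the 4 groups, with marker shape giving the replicate letter and bars the mean and SD (n = 4). Ddx58 falls from a mean of 68.4 in untreated to 45.3 with itaconate and 35.3 with lipid, while Irf3 stays between 51.1 and 59.6 in all 16 libraries.

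The lipid mixture lowered 8 of the 9 members and raised none, where 23.7% of all tested genes were called lower and 23.8% higher. In this comparison close to 1 gene in 4 was called in each direction, and the members' median was -0.72 against 0.005 over all genes. The untreated libraries are the control here as in the itaconate comparison, so the comparisons are not independent. Zbp1 was at 33.2, 29.4, 23.8 and 37.4 CPM with lipid, a log2 fold change of -1.21 (SE 0.11, adjusted p = 7.62e-07). Irf7 was at 46.5, 42.1, 37.1 and 58.8 CPM, a log2 fold change of -1.14 (SE 0.092, adjusted p = 1.56e-07). These were the largest lipid differences among the members, and in both genes each lipid library lay below each untreated library.

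Ddx58 was at 32.1, 30.4, 36.1 and 42.5 CPM with lipid, lower by 48.3% (log2 fold change -0.95 ± 0.087, adjusted p = 5.76e-07). Ifih1 fell by 0.75 (SE 0.099, adjusted p = 2.05e-05) to 41.8 to 51.7 CPM. Dhx58 fell by 0.46 (SE 0.083, adjusted p = 0.000331), with libraries at 44.5, 35.5, 39 and 46.7 CPM. Dhx58 was the one sensor whose point estimate was larger with itaconate than with lipid, a difference that was not tested.

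Irf1 and Stat2, which did not pass with itaconate alone, both fell with lipid. Irf1 stood at 67.5, 58, 69.3 and 67 CPM untreated and at 41.9, 41.2, 36.8 and 38.7 CPM with lipid, a log2 fold change of -0.72 ± 0.062 (adjusted p = 2.94e-07). Stat2 fell by 0.60 (SE 0.085, adjusted p = 4.07e-05) and Irf9 by 0.30 (SE 0.048, adjusted p = 0.000101). Irf3 did not pass (0.06 ± 0.036, adjusted p = 0.222), with 57.2, 56.9, 53.3 and 53.2 CPM. In all, the groups did not overlap for 8 members, all lower with lipid, against 15.9% of all genes on the lower side and 16.6% on the higher.

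Macrophage markers moved with lipid as well. Of 10 tested, 6 were called lower and 1 higher (median log2 fold change -0.55), against 23.7% and 23.8% of all tested genes. Their summed level, mostly Cd68, was 190 to 306 CPM untreated and 239 to 337 CPM with lipid. With itaconate alone 1 marker was called lower and 1 higher, against 2.95% and 1.96% of all tested genes. The sum was then 168 to 259 CPM. In lipid + itaconate against lipid, 1 of the 10 was called lower and 0 higher (median -0.38), against 1.26% and 1.32% of all tested genes. Of the cholangiocyte list, Sox9 and Spp1 were both called lower with lipid (mean summed list level 848 CPM untreated and 467 CPM with lipid). The part of these cells in the members' levels was not tested.

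**Figure D2:**
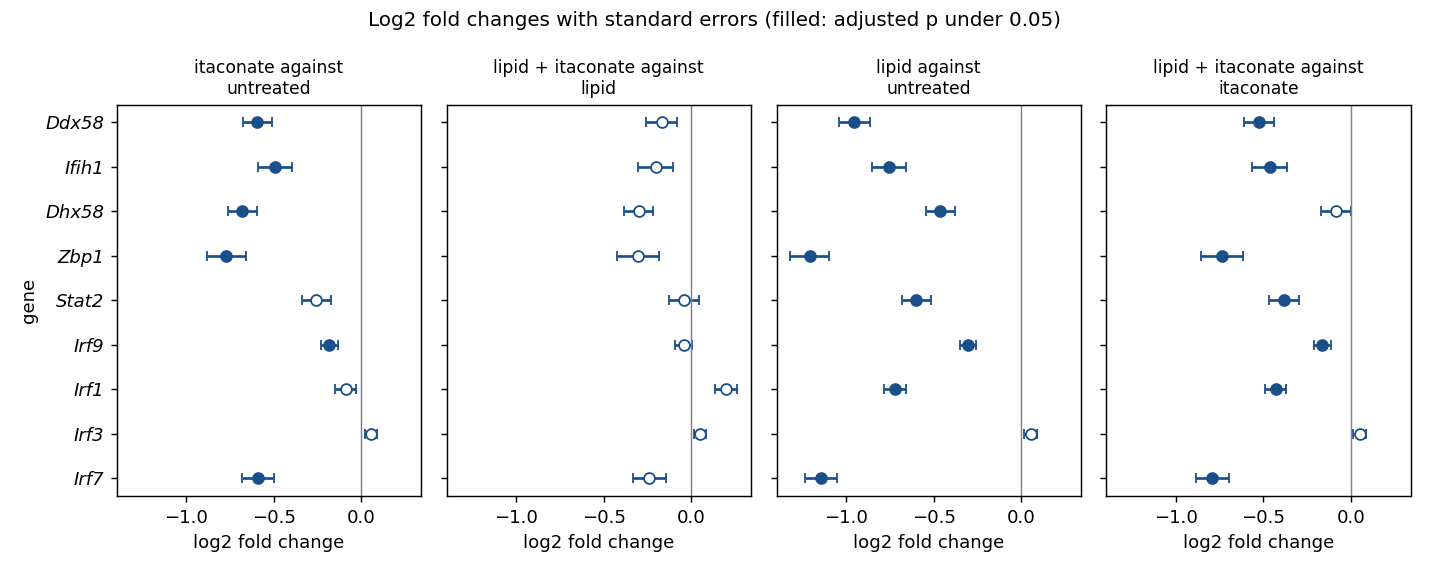
Log2 fold change with its standard error (horizontal axis) of each member in the 4 comparisons, with filled points for adjusted p under 0.05. Filled points number 6 for itaconate against untreated, 0 for lipid + itaconate against lipid, 8 for lipid against untreated and 7 for lipid + itaconate against itaconate.

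In lipid-loaded cells, itaconate called no member. The edgeR quasi-likelihood test called 0 of 9 in lipid + itaconate against lipid, where 1.26% of all tested genes were called lower and 1.32% higher; 4 members had an unadjusted p under 0.05, DESeq2 called 1 and limma-trend 0. The nearest to a call was Dhx58, at 31.7, 25.3, 38.1 and 39.5 CPM against 44.5, 35.5, 39 and 46.7 CPM (log2 fold change -0.30 ± 0.085, adjusted p = 0.0707). Zbp1 was at -0.30 ± 0.12 (adjusted p = 0.193), Irf7 at -0.24 ± 0.094 (adjusted p = 0.197), Ifih1 at -0.20 ± 0.1 (adjusted p = 0.318) and Ddx58 at -0.17 ± 0.089 (adjusted p = 0.347).

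Irf1 pointed the other way. It stood at 41.9, 41.2, 36.8 and 38.7 CPM with lipid and at 42.7, 45.9, 48.7 and 45 CPM with both agents, so that the groups did not overlap. Irf1 was the only 1 of 9 members without overlap, where 2.85% of all genes did not overlap on the lower side and 2.96% on the higher. The difference of 0.20 ± 0.062 did not pass over all genes tested (adjusted p = 0.0993). Irf3 (0.05), Stat2 (-0.04) and Irf9 (-0.04) were near no difference.

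The lipid + itaconate libraries split by replicate letter. In letter A the log2 CPM difference of lipid + itaconate minus lipid was -0.38 for Ddx58, -0.54 for Ifih1, -0.64 for Zbp1 and -0.49 for Irf7, and in letter B it was -0.48, -0.53, -0.59 and -0.47 in the same order. In letter C the same genes were at 0.09, 0.26, 0.19 and 0.16, and in letter D at 0.02, -0.05, -0.24 and -0.19. Thus 7 members were lower in letters A and B, 1 in C and 4 in D. Without lipid, 8 members were lower in every letter, with medians over the members between -0.58 and -0.37. Leaving out lipid + itaconate replicate C brought 4 members past the test (Dhx58 -0.42, Zbp1 -0.48, Irf7 -0.38 and Ifih1 -0.34; adjusted p between 0.00285 and 0.017). Calls over all genes rose with it, from 301 to 891. Without replicate B, Dhx58 was at -0.23, Zbp1 at -0.24, Irf7 at -0.18 and Irf1 at 0.17, and 0 members were called.

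**Figure D3:**
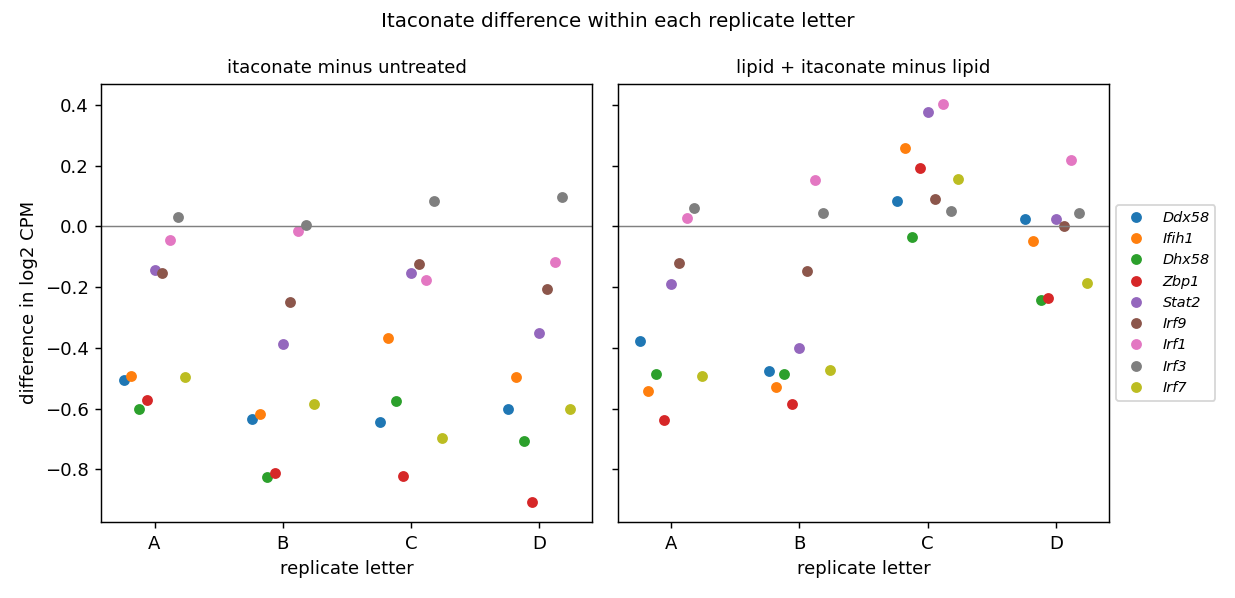
Difference in log2 CPM (vertical axis) between a library with itaconate and the library of the same letter without it, for cells without lipid (left) and with lipid (right), 1 point per member. Without lipid, 8 members lie below 0 in each letter, and with lipid 7 do so in letters A and B, 1 in C and 4 in D.

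The difference between the itaconate effects with and without lipid was tested as an interaction. None of the 9 members was called by the edgeR quasi-likelihood test, in which 0.00857% of all genes were called (1 gene, Cxcl10); 5 members had an unadjusted p under 0.05, and DESeq2 and limma-trend each called 0. The interaction was positive, meaning a higher itaconate log2 fold change with lipid than without, for 8 of 9 members, with a median of 0.29 against 0.004 over all genes. It was 0.43 ± 0.12 for Ddx58 (adjusted p = 0.335), 0.47 ± 0.16 for Zbp1 (adjusted p = 0.431) and 0.38 ± 0.12 for Dhx58 (adjusted p = 0.363). An itaconate call without lipid and none with lipid is therefore not shown to be a difference.

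When itaconate was present in both groups, lipid lowered 7 of 9 members and raised none, with 23.5% of all tested genes called lower and 23.5% higher. Irf7 was at 33, 30.4, 41.3 and 51.6 CPM with both agents, lower by 0.79 than with itaconate alone (SE 0.093, adjusted p = 8.11e-06). Zbp1 fell by 0.74 (SE 0.12, adjusted p = 0.000121), to 21.4, 19.6, 27.1 and 31.7 CPM. In both genes the groups did not overlap, as was also the case for Irf1 (-0.43 ± 0.061, adjusted p = 4.55e-05). These 3 of 9 stand against 14.8% of all genes that did not overlap on the lower side and 16.6% on the higher.

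Ddx58 (-0.53), Ifih1 (-0.46), Stat2 (-0.38) and Irf9 (-0.16) were called lower with groups that overlapped. Without the replicate block, the calls of Ddx58 (adjusted p = 0.0512), Stat2 (0.104) and Irf9 (0.0841) were lost. Dhx58 was not called (-0.08 ± 0.085, adjusted p = 0.44), with means of 35.6 CPM with itaconate alone and 33.7 CPM with both agents. Of the 10 tested macrophage markers, 9 were called lower and 1 higher in this comparison (median -0.90), against 23.5% of all tested genes each way. The part of macrophages in the members' levels was not tested.

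Levels were compared between genes per length, as TPM (transcripts scaled by length and library size) over the merged annotated exons. In untreated cells Irf7 (69.4 ± 14 TPM, SD, n = 4) and Stat2 (66.6 ± 11) were highest, followed by Zbp1 (52.2 ± 10), Dhx58 (44.7 ± 4.8), Irf9 (43 ± 3.1), Irf1 (42.3 ± 3.2) and Irf3 (39.7 ± 1.2). Ddx58 (25 ± 4.5) and Ifih1 (24.7 ± 3.7) were lowest. Neighbours in this order overlapped between libraries at every step but that from Irf3 to Ddx58.

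With both agents the order had shifted. Stat2 (43.8 ± 14 TPM) and Irf3 (42.6 ± 1.6 TPM) then led and overlapped, Irf7 had gone to 26.9 ± 7.8 TPM, and Ddx58 was lowest at 11.8 ± 4.4 TPM. The merged exons of Irf7 cover its whole span, so the length used includes introns of its spliced models and its TPM is understated. Merged exons also covered 5386 of 6460 bases of Irf9, 3442 of 5201 of Irf3 and 3976 of 8361 of Irf1. The order between genes therefore depends on the length used. Exons of Irf3, Irf7 and Irf9 share 88, 45 and 123 bases with Bcl2l12, Phrf1 and Rnf31, and reads from the shared stretch of Irf9 and Rnf31, on the same strand, cannot be told apart by strand.

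**Figure D4:**
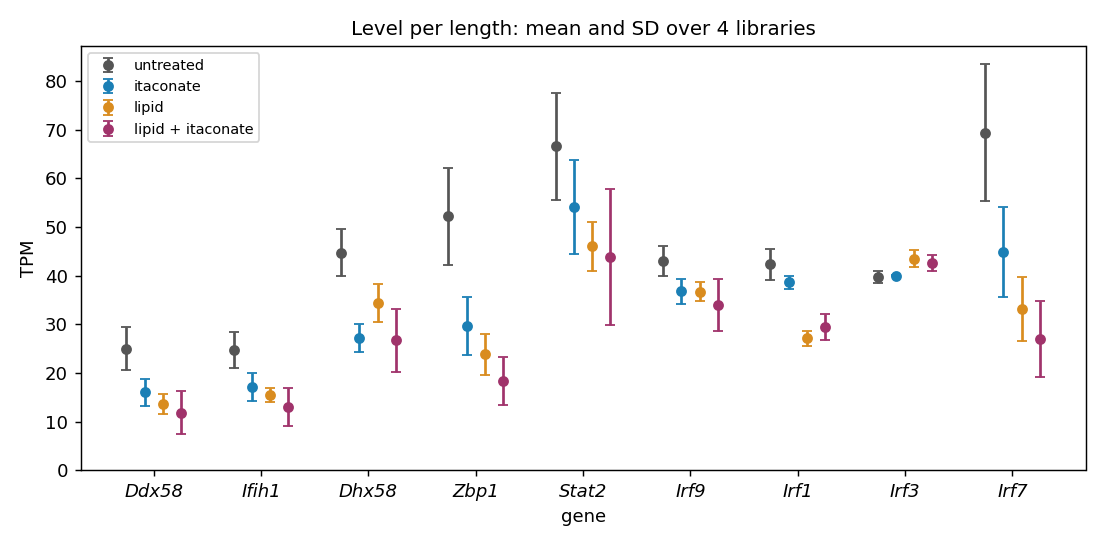
TPM (vertical axis, mean and SD over 4 libraries) of each member by group. Irf7 and Stat2 are highest in untreated cells at 69.4 and 66.6 TPM, and Irf3 is between 39.7 and 43.5 TPM in all groups.

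Most members varied together across libraries. Over the 16 libraries, which share treatments and letters, Pearson's r of log2 CPM was 0.988 between Zbp1 and Irf7 and 0.979 between Ddx58 and Ifih1, between -0.80 and -0.37 for Irf3 with each other member, and between 0.397 (Dhx58 and Irf1) and 0.988 for all other pairs. Treatment took 93.5% of the variance of Irf1 and the letter 1.01%, whereas for Irf3 treatment took 37.3% and the letter 55.2%. Among 9636 other genes averaging 5 CPM or more, the closest in pattern were Ifi44 (r = 0.991) and Samd9l (0.984) for Irf7, Oasl2 (0.988) and Samd9l (0.986) for Zbp1, and Eif2ak2 (0.984) and Apol9b (0.980) for Ddx58. For Ifih1 they were Rnf213 and Parp12 (both 0.980), for Dhx58 Tap1 (0.949) and Uba7 (0.927), for Stat2 Helz2 and Gm6548 (both 0.975), and for Irf9 Gm6548 (0.973) and Apol9b (0.968). Irf1 had other neighbours, the fatty acid oxidation enzyme gene Acadl and Mtch1 (both 0.964), and Irf3 had Selenop (0.892) and Gm28438 (0.873).

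Around the sensors, genes of signal relay moved unevenly. Of 26 tested adaptors, kinases and regulators, 6 were lower and 0 higher with itaconate, led by Tlr3, the endosomal sensor of double-stranded RNA (-0.57), Eif2ak2, the RNA-activated kinase PKR (-0.41), Adar, the RNA-editing enzyme (-0.31), Mlkl, the executor of necroptosis (-0.30), and Trim25, a ubiquitin ligase for RIG-I (-0.26). With lipid 14 were lower and 6 higher, the latter share being close to the 23.8% of all genes called higher. Mavs, the adaptor of RIG-I and MDA5, rose by 0.79 (SE 0.059, adjusted p = 8.26e-08), from a mean of 75 to 129 CPM, while both sensors fell. Cgas, the DNA sensor, averaged 0.756 CPM untreated and 2.32 CPM with lipid (log2 fold change 1.60), but it passed the filter on low values only through the lipid groups, which fixes the direction. Ikbke (-0.97), Rnf135 (-0.78) and Tlr3 (-0.77) fell. With lipid present itaconate called 0 of 26, Ticam1 (adjusted p = 0.0518) and Nlrx1 (0.0547) being nearest. Lipid in the presence of itaconate lowered 13 and raised 6, the 6 being near the 23.5% of all tested genes called higher. Called lower were 23.5% of all genes there, 23.7% with lipid alone and 2.95% with itaconate alone, where 1.96% were called higher.

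Interferon genes themselves were barely detected. Ifnb1 reached at most 3 counts and Ifnk 5 in a library, and Ifna1, Ifna2, Ifna4, Ifna5, Ifne, Ifng, Ifnl2 and Ifnl3 were at 0 in all. Of 8 tested receptor and JAK kinase genes, itaconate called 0, without lipid or with it; the smallest p without lipid were those of Il10rb (adjusted p = 0.0993) and Tyk2 (0.142), and with lipid those of Jak2 (0.0844) and Ifnar2 (0.174). Lipid lowered Jak2 (-0.31), Ifngr2 (-0.26) and Ifnar2 (-0.19) and raised Ifnar1 (0.22). With itaconate present lipid lowered 1 and raised 3. Both counts are near the share of all genes called, 23.7% lower and 23.8% higher in the former comparison and 23.5% each way in the latter.

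Of 11 other STAT and IRF genes tested, itaconate lowered Irf5 (-0.55, adjusted p = 0.012) and raised 0, against 2.95% and 1.96% of all tested genes. With lipid present itaconate lowered 0 and raised Irf2, a repressor that competes for IRF sites (0.22, adjusted p = 0.0339). Over all tested genes 1.26% were called lower there and 1.32% higher. Lipid lowered 5 and raised 2, with Stat3 at -0.63 and Irf2 at -0.47. Of all tested genes 23.7% were called lower and 23.8% higher, so the 2 raised are near that share. In the presence of itaconate lipid lowered 3 and raised 3, near the 23.5% of all genes called in each direction.

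Among 19 inhibitors of the pathway, itaconate lowered 3: Usp18, which removes ISG15 and blocks the interferon receptor (-0.72), Tnip1 (-0.30) and Usp25 (-0.17). With lipid present it lowered Usp18 (-0.39) and raised Socs3 (0.41) and Tnfaip3 (0.32). Lipid lowered 10 and raised 0, with Tnfaip3 at -0.99 and Usp18 at -0.87. Socs1, also called at -1.47, passed the filter on low values only through the groups without lipid. In the presence of itaconate lipid lowered 8 and raised 3. Over all tested genes, itaconate called 2.95% lower and 1.96% higher, and 1.26% and 1.32% with lipid present. The shares for lipid were 23.7% and 23.8%, and 23.5% each way in the presence of itaconate.

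The downstream list moved in the direction of the members. Of 41 tested interferon-stimulated genes, 38 were lower and 0 higher with itaconate (median -0.62), against 2.95% and 1.96% of all tested genes. Ifit3b (-1.56), Ifit3 (-1.38), Ifit1 (-1.26), Oasl2 (-1.08) and Rsad2 (-1.07) fell furthest. Lipid lowered 40 and raised 0 (median -0.85), where 23.7% of all tested genes were called lower. Sp100 (-0.96), among the 40, passed the filter on low values only through the untreated group, which fixes its direction. With lipid present itaconate lowered 12 and raised 0 (median -0.28), with Ifit3b at -0.84 and Ifit3 at -0.76. Over all tested genes 1.26% were called lower there. Lipid in the presence of itaconate lowered 32 and raised 0, where 23.5% of all tested genes were called lower. In the interaction, Cxcl10, a chemokine gene, was the only call (0.47) among the 5 lists.

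**Figure D5:**
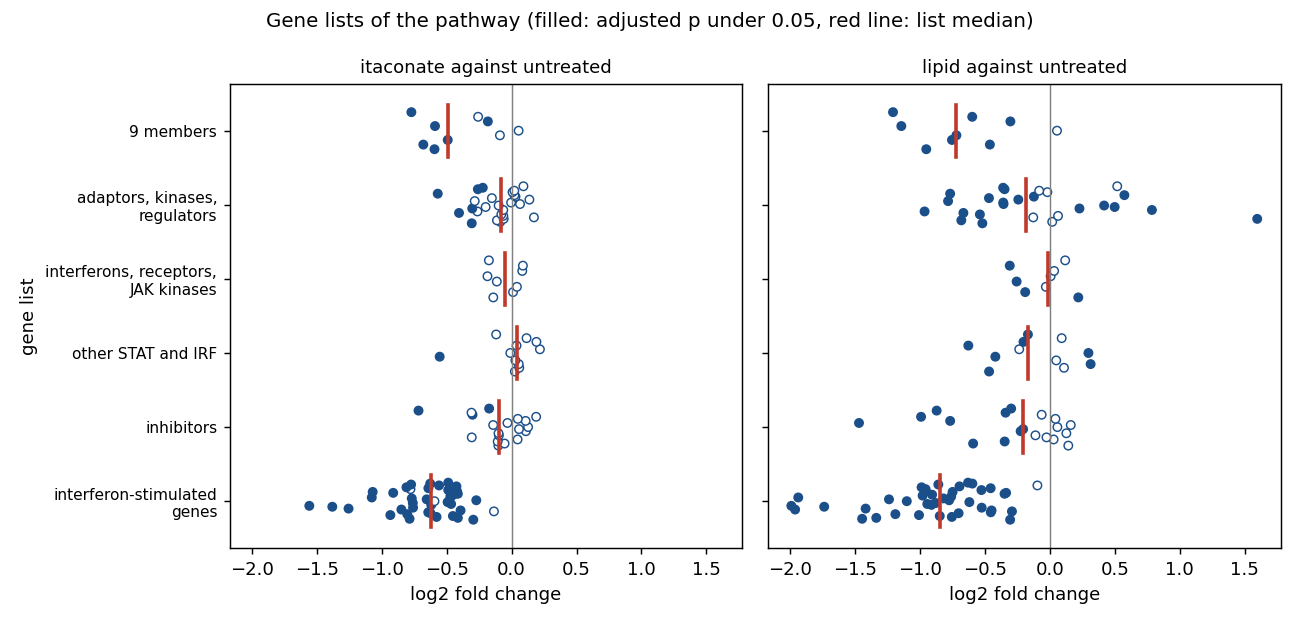
Log2 fold change (horizontal axis) of the members and of each tested gene of the 5 pathway lists with itaconate (left) and with lipid (right), filled for adjusted p under 0.05, with the list median as a red line. Interferon-stimulated genes have medians of -0.62 and -0.85, receptor and kinase genes -0.05 and -0.01.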

How the data were processed

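Per the labels, total RNA from treated hepatocytes was poly(A)-selected and sequenced from a stranded ligation kit. The submitters' processing notes name bcl2fastq 2.20, cutadapt 1.18, STAR 2.7.0f, Picard 2.18.26, RSEM 1.3.1 and the mm10 build. The deposited values are RSEM expected counts per gene, made by the authors, of which 5.41% were not whole; they were rounded here. RSEM divides reads that fit several genes, which makes near-identical copies uncertain.

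The filter on low values asked for an average of 1 CPM or more across all 16 libraries. One edgeR 4.0.16 quasi-likelihood model in R 4.3.3, with TMM scaling and terms for treatment and replicate letter, gave the 4 comparisons and the interaction, adjusted by Benjamini-Hochberg over 11675 genes; calls have an adjusted p under 0.05. Deviations from group means correlated between same-letter libraries at 0.144 to 0.469 (24 pairs), and between other letters at no more than 0.178 (72 pairs), so the letter was kept as a block. No 2 libraries of a group agreed within sampling noise. Log2 CPM used a prior count of 0.5. TPM and positions used GENCODE (GRCm38), in which all 55450 identifiers matched, and promoters RefSeq GRCm38.p6. Alternatives used limma 3.58.1, DESeq2 1.42.0, other scalings and filters, and left out each library. The scripts were tested on simulated data.

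The 9 members and the pathway lists were chosen with earlier results of these data known. All 9 members are named in each comparison. Of each pathway list, at most 5 called genes with the largest change are named, or, where none was called, the 2 with the smallest p. The 2 genes most like each member by Pearson's r are named. One gene of the STAT and IRF list is not reported here and was left out of that list's counts.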

Additional observations from a re-analysis of the deposited data

Results flagged for a closer look

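Irf1 was the member whose itaconate difference had opposite signs in the presence and absence of lipid: it was lower in 4 of 4 letters without lipid (log2 fold change -0.09) and higher in 4 of 4 letters with lipid (0.199). Neither was called, and the test of the difference itself gave an interaction of 0.29 (adjusted p = 0.346, edgeR quasi-likelihood test; unadjusted p = 0.00421). In 36 groups of 4 libraries, 9 members in 4 groups, 0 single libraries stood apart by Dixon's test in a member's level.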

How the results depend on the processing

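Each comparison was repeated under every alternative. For itaconate against untreated, 6 members were called. Without the replicate block it was 1 (Dhx58), and 23 genes in place of 573 among all those tested. Over the 23 alternatives, Stat2 gained a call in 5 and Irf9 lost its call in 9. For lipid + itaconate against lipid, 0 became 5 with no filter and 1 with DESeq2; leaving out 1 library gave 0 to 4, the 4 without lipid + itaconate replicate C. For lipid + itaconate against itaconate, 7 became 4 without the block. For the interaction, 0 became 4 with no filter. The 8 members lowered by lipid were 8 under every alternative. Calls over all genes in lipid + itaconate against lipid went from 301 to 9 without the block, 14 in the 8 libraries alone, 725 with no filter, and 59 to 891 with 1 library left out. For itaconate against untreated they went to 1859 in the 8 libraries alone, 1091 with no filter, and 149 without itaconate replicate C. For the interaction they went from 1 to 231 with no filter and 36 with DESeq2. The sign turned for values near 0: leaving out 1 library, Stat2 in lipid + itaconate against lipid ran from -0.138 to 0.034, above 0 without lipid replicate B or lipid + itaconate replicate B, and the Irf3 interaction ran from -0.033 to 0.009. The cause of these shifts was not tested. Of all values compared, 984 kept their direction and side of the threshold, 20 gained a call, 16 lost one and 6 turned. Median-ratio scaling moved the median of all genes by under 0.1 on the log2 scale. The interferon genes had few or no counts, and whether depth or absence of their transcripts lay behind this was not tested.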
